A study of Mus musculus with 15 samples.

Results

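The effect of B cell affinity on gene expression was compared between the light zone and the dark zone of the germinal centre, as the light zone difference between high-affinity and low-affinity cells minus the same difference in the dark zone. All 15 of the 15 arrays of the series entered this contrast. They held 3 arrays of high-affinity light zone cells (LZ_high), 4 of low-affinity light zone cells (LZ_low), 4 of high-affinity dark zone cells (DZ_high) and 4 of low-affinity dark zone cells (DZ_low). Genes whose fitted affinity difference had opposite signs in the zones are described; these were 8837 of the 19938 genes tested.

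Every group came from the spleen of female mice and from the same kind of cell. SwHEL B cells have a knocked-in antigen receptor for hen egg lysozyme, so they share 1 starting specificity. Cells with the CD45.1 marker were given to C57BL/6J recipients, which are CD45.2 and keep their own B cells, and the recipients received sheep red blood cells carrying the lysozyme mutant HEL3x. On day 10 donor cells that were CD45.1+, CD45.2-, IgG1+ and CD38 low were sorted. The light zone gate was CD86 high and CXCR4 low, and the dark zone gate was CXCR4 high and CD86 low. How high and low affinity were gated, and whether an array stands for 1 mouse or a pool, is not stated in the labels, so the tests speak of the spread between samples, which may be technical.

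In germinal centres, B cells divide and mutate their antigen receptors in the dark zone and test them in the light zone, where they take up antigen and present it to T follicular helper cells. Cells that receive help there express growth genes and return to the dark zone to divide, or leave as memory cells or plasma cells. Affinity for antigen affects how much antigen a cell captures and presents, and the contrast asks whether high and low affinity cells differ in another way in one zone than in the other.

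The values are log2 RMA values, 1 per gene and array, with array medians between 5.57 and 5.74. The arrays carry experiment codes, read here as A to D. Light zone pairs of high and low affinity could be formed within A, B and C, and dark zone pairs within A, B, C and D, because LZ_high has no array of D. Code B is written in one form on the dark zone arrays and in another on the light zone arrays; whether these are 1 experiment is not stated, so a contrast given for experiment B may span more than 1 experiment. Genes that define B cells had a mean level of 10.0 to 10.6 in every array. The 19 neutrophil markers had a mean level of 8.39 in the LZ_low array and 7.18 in the DZ_low array of experiment D, against 4.96 to 6.22 in the other arrays. The 15 T cell markers had a mean of 7.03 in the LZ_low array of experiment D and 6.32 in that of C, against 5.40 to 6.13 elsewhere.

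No gene was shown to respond to affinity differently in the 2 zones. In limma, with experiment code as a covariate, the contrast called 0 of 19938 genes at an adjusted p under 0.05 (0%), and the lowest adjusted p was 1. At an unadjusted p under 0.05 there were 380 genes (1.91%), 196 above 0 and 184 below 0. Within the light zone the affinity difference also called 0 genes (0%; 942 unadjusted, 4.72%), and within the dark zone 0 (0%; 566 unadjusted, 2.84%). The names below therefore describe patterns of values, not calls. The number of arrays limits the precision. The contrast had a median standard error of 0.22 over genes on the log2 scale, and for 80.9% of genes its 95% interval lay within 1 of 0, a difference of 2-fold.

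Affinity differences of the zones tended to share a sign. Of the 19938 genes, 8837 (44.3%) had opposite signs, with 4729 above 0 in the light zone and below 0 in the dark zone (23.7%) and 4108 the other way (20.6%). Where both differences were at least 0.5 in size, 117 genes had the same sign (0.587%) and 21 had opposite signs (0.105%). Across genes the light and dark zone differences had a Pearson r of 0.27, and 0.47 over the 3490 genes with a mean value of at least 8. Genes are not independent replicates, and the zones share experiments and the sorted source, so this is a description. The contrast itself varied between experiments. Over all genes, its values in A and B had a correlation of -0.08, in A and C -0.10, and in B and C 0.15. The affinity differences of single pairs varied as well. Between experiments, their correlations over genes were 0.06 to 0.23 for light zone pairs and -0.29 to 0.12 for dark zone pairs. Light and dark zone pairs sharing a code had 0.02, 0.37 and 0.06 in A to C.

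**Figure D1:**
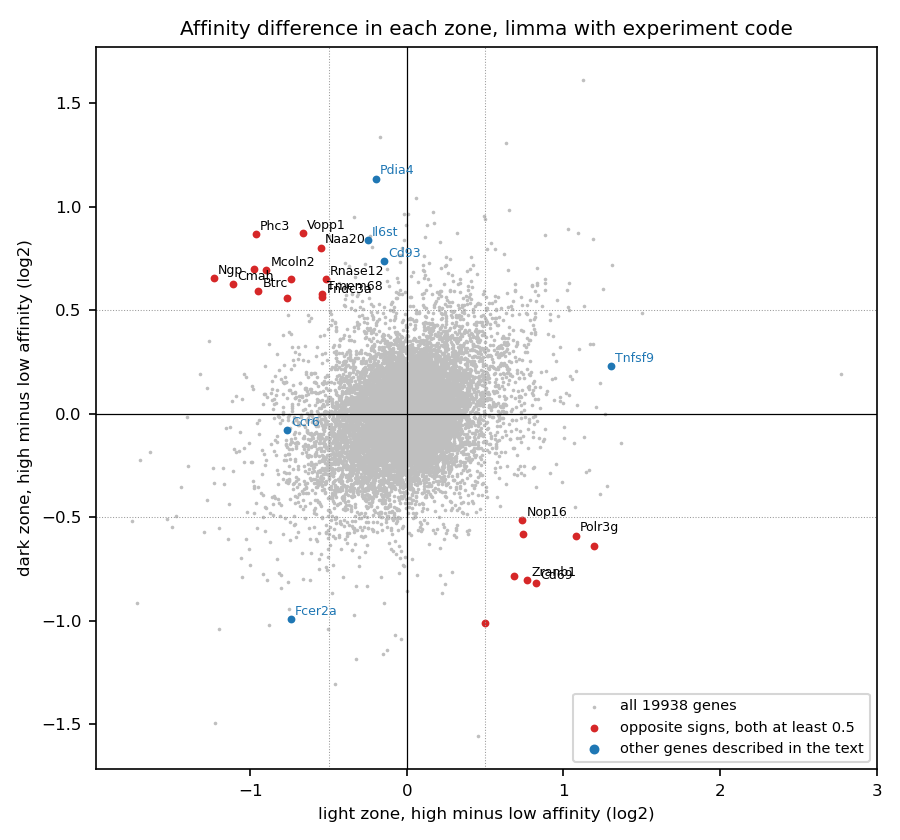
Each point is 1 of 19938 genes, placed by its high minus low affinity difference in the light zone (horizontal, log2) and the dark zone (vertical, log2); red points have opposite signs with both differences at least 0.5, and blue points are other genes described in the text. The 21 red points lie at the edge of a cloud whose long side runs from lower left to upper right, Pdia4 stands far above 0 in the dark zone only, and Fcer2a lies below 0 in both.

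Most plasma cell genes had higher values in high-affinity cells in the dark zone, while in the light zone their differences lay on both sides of 0. Plasma cells are B cells that secrete antibody, and their gene list held 48 measured genes. Lists are described here by counts and medians, with no test of the list. Of these, 42 lay above 0 in the dark zone with a median of 0.26, against 50.4% of all genes and a median of 0.00. In the light zone 23 lay above 0 and 25 below, with a median of -0.02, against 53.5% of all genes above 0 and a median of 0.01. The contrast lay below 0 for 38 of the 48, against 9679 of all 19938 genes (48.5%), with a median of -0.30 against 0.01. No member passed the test, and 5 had an unadjusted p under 0.05, against 1.91% of all genes. Of the 48, 23 (47.9%) had opposite signs in the zones, near the 44.3% of all genes. Of the 23, 21 were below 0 in the light zone and above 0 in the dark zone. That split follows largely from the 42 of 48 above 0 in the dark zone and is no further result.

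The median was above 0 in each dark zone pair, at 0.13, 0.38, 0.25 and 0.35 in experiments A to D. In light zone pairs it was 0.00, 0.03 and -0.05 in A to C. By experiment the contrast had list medians of -0.06, -0.37 and -0.19, so experiment A was near 0. The mean level of the list was 8.07 to 8.16 in the DZ_high arrays and 7.68 to 7.98 in the other 11 arrays (DZ_low, LZ_high and LZ_low). In bulk samples, fewer cells of a type and less RNA per cell cannot be told apart, so a share of secreting cells was not measured. Without experiment D, whose low-affinity arrays had the most neutrophil signal, the contrast median was -0.26.

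Pdia4, which encodes a disulfide isomerase of the endoplasmic reticulum, had the largest contrast of this list. Its values were 9.74, 9.47, 9.61 and 8.53 in DZ_high (experiments A, B, C and D) and 9.22, 7.70, 8.02 and 7.86 in DZ_low (A, B, C and D). In the light zone they were 7.95, 7.96 and 7.99 in LZ_high (A, B and C) and 8.03, 7.94, 8.17 and 8.01 in LZ_low (A, B, C and D). The dark zone low-affinity array of experiment A lay above the DZ_high array of D, so the dark zone groups overlap, while all light zone arrays stand within a narrow band. The dark zone difference was 1.14 ± 0.25 (SE), a 2.20-fold difference, the light zone difference was -0.20 ± 0.28, and the contrast was -1.33 ± 0.38 with a 95% interval of -2.16 to -0.51. In limma the adjusted p of the contrast was 1.

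Fkbp11, which encodes a peptidyl-prolyl isomerase of the secretory pathway, had values of 6.05, 6.15, 5.80 and 5.95 in DZ_high and 5.66, 5.31, 4.95 and 5.41 in DZ_low. These groups did not overlap in the dark zone. In the light zone they overlapped, with a difference of -0.06 ± 0.20. Its contrast was -0.72 ± 0.27. Slpi, a protease inhibitor gene, had a contrast of -0.98 ± 0.42, with a dark zone difference of 0.97 and a light zone difference of -0.02. Creb3l2, a transcription factor gene of the secretory pathway, had a contrast of -0.82 ± 0.34, and Cd28 one of -0.83 ± 0.30. Cd28 is also in the list of T cell markers, and its LZ_low values of 5.03 and 5.48 in experiments C and D stand above 4.34 and 4.43 in A and B, as the T cell markers do; their part in that value was not tested. Its contrast was -0.67 without the LZ_low array of D and -0.72 without experiment D. Jchain, which joins polymeric antibody, was above 0 in both zones (0.62 and 0.77), with a contrast of -0.15 ± 0.39. The regulators Irf4 and Xbp1 had contrasts of 0.08 ± 0.35 and -0.22 ± 0.27, and Prdm1, which encodes Blimp-1, one of -0.42 ± 0.24.

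The list of the unfolded protein response and folding in the endoplasmic reticulum shared 14 genes with the plasma cell list, 29.2% of that list and 35.0% of its own 40. It had medians of 0.17 in the dark zone, -0.03 in the light zone and -0.12 for the contrast, with 30 of 40 below 0. The contrast median was -0.07 without DZ_low replicate 2 and -0.19 without LZ_high replicate 2. In the dark zone 11 of the 40 lay below 0, and the dark zone median of experiment A was -0.01. Within experiments its contrast medians were 0.06, -0.30 and -0.28 in A to C. Of its 14 genes with opposite signs, 12 were below 0 in the light zone and above 0 in the dark zone. Over the whole list 29 of the 40 lay above 0 in the dark zone, so part of that split follows from this count. Hsp90b1, the chaperone gene for GRP94, had values of 12.54, 12.32, 11.67 and 12.29 in DZ_high and 12.03, 11.75, 11.33 and 10.38 in DZ_low. Its dark zone difference was 0.83 ± 0.21, its light zone difference 0.21 ± 0.23 and its contrast -0.62 ± 0.31. The DZ_low array of experiment D was the lowest in the dark zone, and without it the contrast was -0.26. Creld2, a chaperone-like gene induced by stress of this compartment, had a dark zone difference of 0.46 ± 0.23, a light zone difference of -0.21 ± 0.26 and a contrast of -0.67 ± 0.35.

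Promoters of these genes are shown because this list is known for a shared control element, the ER stress response element. The element was searched as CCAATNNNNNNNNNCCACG on both strands in 300 bases, 250 before to 50 after the start site, of RefSeq promoters of GRCm38.p6. It was in 37 of 27025 genes with a promoter (0.137%), in 9 of 32 genes of this list (28.1%) and in 3 of 40 plasma cell genes (7.5%). Such a match is a description and is no evidence of binding. The shown promoters are those of the 2 list members with a match and the largest contrast in size. The Creld2 promoter lies at chr15:88819396-88819695 on the plus strand and holds 1 match, on the opposite strand. The Hsp90b1 promoter lies at chr10:86705395-86705694 on the minus strand and holds 2 matches, 1 on each strand. Both are written 5′ to 3′ along the gene, with the matches in capitals.

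Creld2: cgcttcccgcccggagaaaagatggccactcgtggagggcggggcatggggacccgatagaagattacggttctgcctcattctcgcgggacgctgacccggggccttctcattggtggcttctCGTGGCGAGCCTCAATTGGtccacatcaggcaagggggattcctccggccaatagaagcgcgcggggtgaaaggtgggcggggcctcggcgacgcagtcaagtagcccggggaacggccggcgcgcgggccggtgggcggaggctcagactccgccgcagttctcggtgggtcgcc

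Hsp90b1: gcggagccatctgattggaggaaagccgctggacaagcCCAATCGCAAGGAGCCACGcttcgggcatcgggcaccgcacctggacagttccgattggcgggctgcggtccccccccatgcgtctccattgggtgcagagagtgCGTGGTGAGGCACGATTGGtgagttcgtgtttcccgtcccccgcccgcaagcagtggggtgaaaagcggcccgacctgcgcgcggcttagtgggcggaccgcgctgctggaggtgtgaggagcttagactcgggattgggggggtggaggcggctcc

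Mitosis genes showed the reverse pattern, with the affinity difference larger in the light zone. The list of G2/M and mitosis genes, which assemble the spindle and separate chromosomes, held 67 measured genes. In the light zone 66 lay above 0 with a median of 0.52, and in the dark zone 56 lay above 0 with a median of 0.17. The contrast lay above 0 for 59 of 67, against 10259 of all 19938 genes (51.5%), with a median of 0.35. No member passed the test, and 8 had an unadjusted p under 0.05, against 1.91% of all genes. Only 12 of the 67 (17.9%) had opposite signs in the fit over all experiments. The share over all genes was 44.3%, but their median level was 5.78, against 8.48 for the list. No share was taken over genes of a like level. The light zone medians were 0.62, 0.43 and 0.27 in experiments A to C, and the dark zone medians were -0.12, 0.38, -0.10 and 0.54 in A to D. The zone medians thus had opposite signs in A and C, and were of like size in B, at 0.43 and 0.38. By experiment the contrast median was 0.77, 0.08 and 0.17.

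The LZ_low array of experiment D had the lowest mean level of this list, 7.05 against 7.95 to 9.11 in the other arrays, and it is also the array with the highest neutrophil marker level; the part of those cells in the value was not tested. Without that array the contrast median was 0.28, without experiment D it was 0.34, and with no covariate for experiment it was 0.54, over 1.5 times the value with it. Bub1b, a spindle checkpoint kinase gene, had values of 9.91, 9.94 and 10.03 in LZ_high and 9.25, 9.44, 9.23 and 8.51 in LZ_low. In the dark zone they were 9.84, 10.19, 10.08 and 9.50 in DZ_high and 9.94, 9.63, 10.10 and 9.60 in DZ_low. The light zone groups did not overlap and the dark zone groups did. Its contrast was 0.63 ± 0.20, from a light zone difference of 0.72 and a dark zone difference of 0.08. By experiment the contrast of Bub1b was 0.77, -0.06 and 0.81 in A to C. Kif20a, a kinesin gene of late mitosis, had values of 8.04, 8.21 and 7.82 in LZ_high and 7.44, 7.57, 7.40 and 6.56 in LZ_low, which did not overlap. Its contrast was 0.60 ± 0.19, with a dark zone difference of -0.01, and 0.56 without the LZ_low array of D. The cyclin genes Ccnb2 and Ccna2 had contrasts of 0.66 ± 0.42 and 0.35 ± 0.18. That of Ccnb2 was 0.38 without the LZ_low array of D and 0.35 without the DZ_low array of D. By experiment Ccnb2 had 0.77, 0.41 and -0.14 in A to C.

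Ckap2 and Hmmr, genes of spindle proteins, had the largest contrasts of the list among members whose promoter holds the cell cycle genes homology region. This element was searched as TTTGAA on both strands in the same windows. It was in 38 of 57 genes of the list with a promoter (66.7%), in 5466 of 27025 genes overall (20.2%) and in 5 of 40 plasma cell genes (12.5%). Ckap2 had a contrast of 1.08 ± 0.47 and Hmmr one of 1.02 ± 0.64, which became 1.31 and 1.69 without experiment D. They fell to 0.76 and 0.74 without DZ_high replicate 3, and to 0.86 and 0.76 without DZ_low replicate 4. Their promoters lie at chr8:22185770-22186069 and chr11:40733388-40733687, both on the minus strand. They are shown with the match in capitals, 5′ to 3′ along the gene.

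Ckap2: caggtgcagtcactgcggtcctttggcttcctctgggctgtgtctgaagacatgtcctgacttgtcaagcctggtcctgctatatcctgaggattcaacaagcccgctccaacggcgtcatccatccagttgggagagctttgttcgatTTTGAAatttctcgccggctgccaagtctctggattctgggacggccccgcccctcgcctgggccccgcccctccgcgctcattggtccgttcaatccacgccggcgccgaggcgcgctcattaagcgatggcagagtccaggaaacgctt

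Hmmr: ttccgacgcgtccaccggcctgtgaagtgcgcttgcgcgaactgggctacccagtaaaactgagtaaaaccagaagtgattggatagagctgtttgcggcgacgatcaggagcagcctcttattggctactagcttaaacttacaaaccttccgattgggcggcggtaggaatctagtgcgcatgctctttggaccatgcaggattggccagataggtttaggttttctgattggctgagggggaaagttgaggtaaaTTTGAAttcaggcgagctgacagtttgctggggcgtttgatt

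DNA replication genes did not share this pattern. The list of G1/S and DNA replication genes, 56 measured, had medians of 0.25 in the light zone and 0.26 in the dark zone, with 47 and 53 members above 0. Its contrast median was -0.05, and 0.22, -0.18 and -0.19 by experiment. Ccnd3, which encodes the cyclin D3 of germinal centre B cells, had a contrast of -0.05 ± 0.19. Ccnd2 had one of -0.11 ± 0.34.

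**Figure D2:**
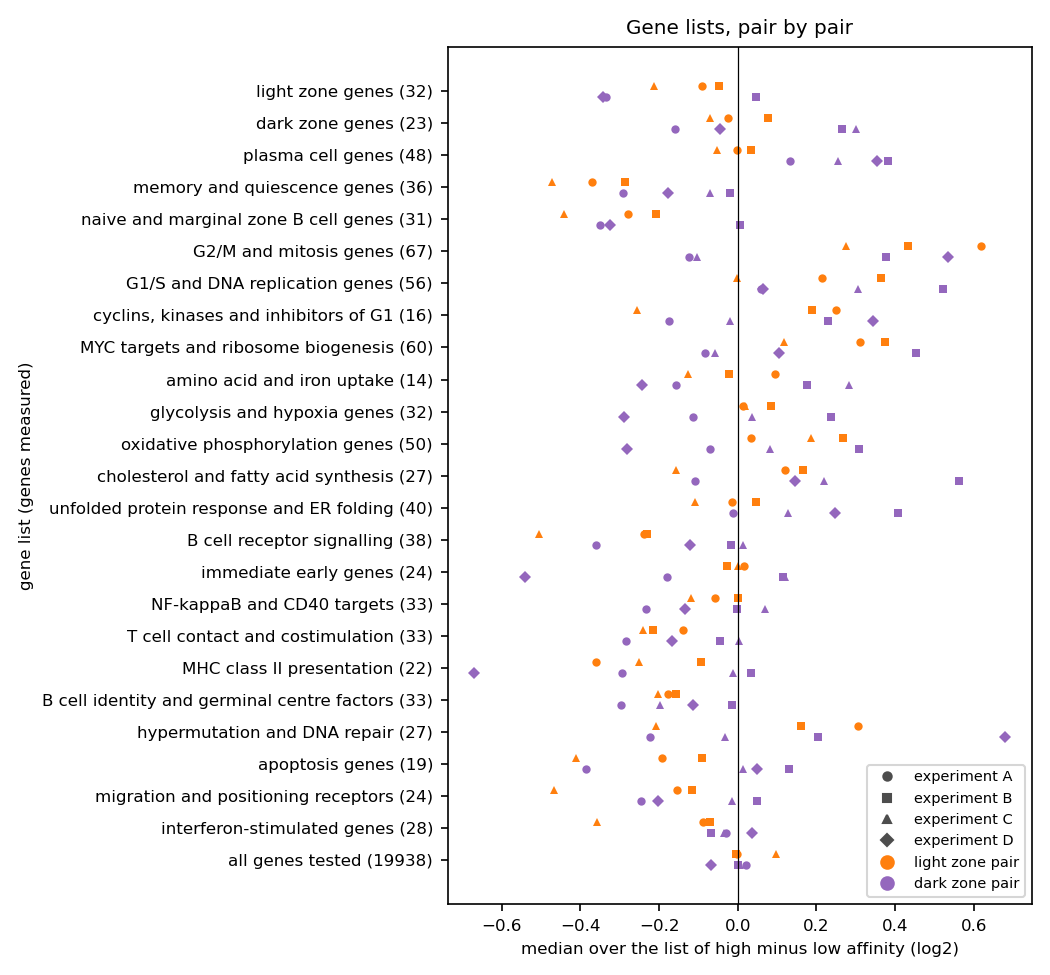
Points give, for each gene list, the median high minus low affinity difference (log2) of 1 pair of arrays within an experiment, orange for light zone pairs and purple for dark zone pairs, with the marker shape giving the experiment; the number of genes measured is in brackets. Plasma cell genes have all 4 dark zone points to the right of 0 and light zone points near 0, while G2/M genes have all 3 light zone points to the right of 0 and dark zone points on both sides.

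Growth genes leaned to the light zone by a small amount. MYC targets and ribosome biogenesis genes had 52 of 60 members above 0 in the light zone (median 0.32) and 45 in the dark zone (median 0.13). The contrast median was 0.14, and 0.45, -0.04 and 0.12 in experiments A to C. With 1 array left out it ranged from 0.05, without LZ_high replicate 2, to 0.27, without LZ_high replicate 4. Myc itself, the transcription factor gene that marks helped light zone cells, had a light zone difference of 0.23 ± 0.34 and a dark zone difference of 0.27 ± 0.31, so its contrast was -0.04 ± 0.46. Tfap4, a target of Myc, had a contrast of 0.03 ± 0.25, and Batf, a transcription factor gene of activated cells, one of 0.39 ± 0.25. Tfrc, the transferrin receptor gene of iron uptake, was above 0 in both zones (0.83 and 0.63). Oxidative phosphorylation genes had a contrast median of 0.11 over 50 genes, with 39 above 0, and it was 0.04 without DZ_high replicate 4, 0.06 without experiment D and 0.19 with the title replicate number as the block. Of the 18 with opposite signs, 15 were above 0 in the light zone and below 0 in the dark zone. Over the whole list 41 of the 50 lay above 0 in the light zone, so part of that split follows from this count. Genes of glycolysis and hypoxia had a contrast median of -0.03 over 32, and those of cholesterol and fatty acid synthesis -0.07 over 27.

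Most genes of antigen receptor signalling had negative affinity differences in both zones, and the contrast was small. Of 38 B cell receptor signalling genes, 35 lay below 0 in the light zone (median -0.25), against 46.5% of all genes, and 29 in the dark zone (median -0.14), against 49.6%. Pair medians were -0.24, -0.23 and -0.50 in the light zone (A to C) and -0.36, -0.02, 0.01 and -0.12 in the dark zone (A to D). The dark zone was thus near 0 in experiments B and C. The contrast median was -0.13, and 0.00 without LZ_high replicate 4. Immediate early genes, which are induced within minutes of receptor signals, had a contrast median of 0.05 over 24. Egr1 and Egr2 had contrasts of 0.01 ± 0.34 and 0.32 ± 0.28. Nr4a1, encoding the receptor signal reporter Nur77, had opposite signs, at -0.35 ± 0.18 in the light zone and 0.08 ± 0.17 in the dark zone, with a contrast of -0.43 ± 0.25.

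Among molecules of T cell help, Tnfsf9 stood apart from its list. Tnfsf9 encodes 4-1BB ligand, a costimulatory molecule. Its values were 7.87, 7.31 and 8.24 in LZ_high and 7.05, 6.22, 6.57 and 6.48 in LZ_low. In DZ_high they were 5.61, 5.97, 5.16 and 6.29, and in DZ_low 5.69, 5.33, 5.35 and 5.74. The LZ_high arrays all lay above the LZ_low arrays, and the dark zone groups overlapped. The light zone difference was 1.30 ± 0.27, a 2.47-fold difference, the dark zone difference was 0.23 ± 0.24, and the contrast was 1.07 ± 0.36 with a 95% interval of 0.27 to 1.87. In limma its adjusted p was 1. The contrast was 0.76 without LZ_high replicate 4 and 0.73 with array weights.

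The 33 genes of T cell contact and costimulation had a contrast median of -0.12, and 33 NF-kappaB and CD40 targets had one of 0.03. The costimulatory genes Icosl, Icam1, Cd40 and Cd83 were below 0 in both zones, with contrasts of -0.12 ± 0.28, 0.06 ± 0.24, -0.15 ± 0.24 and 0.08 ± 0.24. Nfkbia, an inhibitor of NF-kappaB, had differences of -0.14 and -0.13. Cd86, which set the zone gates, had differences of -0.05 ± 0.18 in the light zone and -0.64 ± 0.16 in the dark zone, and a contrast of 0.59 ± 0.24. MHC class II presentation genes had 20 of 22 members below 0 in each zone, with medians of -0.30 and -0.20 and a contrast median of 0.02, which was -0.24 without experiment D. Their dark zone pair medians were -0.29, 0.03, -0.01 and -0.67 in A to D.

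Memory-associated genes had negative affinity differences that were larger in the light zone. Of 36 measured memory and quiescence genes, 33 lay below 0 in the light zone (median -0.42) and 27 in the dark zone (median -0.13). The contrast lay below 0 for 28 of 36, with a median of -0.30, and 6 had an unadjusted p under 0.05, against 1.91% of all genes. By experiment the contrast median was 0.05, -0.26 and -0.34, so experiment A did not show it. The median was -0.25 without experiment D and -0.20 without LZ_high replicate 4. In limma, 0 of the 36 passed. The list shared 7 genes with the 24 receptors of migration and positioning (19.4% of 36 and 29.2% of 24), whose contrast median was -0.14.

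Ccr6, which encodes the chemokine receptor for CCL20 and is associated with memory B cells, had the lowest unadjusted p of that list. Its values were 5.01, 5.13 and 5.28 in LZ_high and 5.64, 6.01, 5.99 and 6.07 in LZ_low. In the dark zone they were 4.89, 4.96, 5.01 and 5.06 in DZ_high and 4.74, 5.34, 5.11 and 5.05 in DZ_low. The light zone groups did not overlap, and the LZ_low arrays also stood above all dark zone arrays. The light zone difference was -0.77 ± 0.12, the dark zone difference -0.08 ± 0.11 and the contrast -0.69 ± 0.16, with a 95% interval of -1.03 to -0.34. It lay below 0 in experiments A, B and C, at -0.79, -0.49 and -0.62, and at -0.66 without the LZ_low array of D. S1pr1, the receptor that guides cells out of tissue, had opposite signs (-0.68 and 0.15) and a contrast of -0.83 ± 0.34, or -0.51 without LZ_high replicate 4. Fcer2a, which encodes CD23, was below 0 in both zones (-0.74 and -0.99), with a contrast of 0.25 ± 0.21. Hhex, Gpr183 and Klf2 had contrasts of -0.41 ± 0.44, -0.34 ± 0.46 and -0.18 ± 0.27.

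B cell identity and germinal centre factors had equal medians in the zones. Over 33 genes these were -0.17 in the light zone and -0.17 in the dark zone, with a contrast median of 0.01. Bcl6, the central germinal centre repressor gene, had a contrast of 0.20 ± 0.19, and Pax5, of B cell identity, one of 0.26 ± 0.24. Bach2, a repressor gene of plasma cell fate, had differences of -0.80 ± 0.29 and -0.44 ± 0.26, and Foxo1, of the dark zone program, -0.18 and -0.13. Cxcr4, a gate marker, had a contrast of -0.12 ± 0.25.

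Of the 21 genes with opposite signs and both differences at least 0.5, 8 were above 0 in the light zone and 13 below. Of these, 14 could be named, 4 above and 10 below, and the other 7 are small RNAs or genes with provisional names. They were chosen on the contrast, so their values are descriptions. Just inside the threshold lay A630089N07Rik, whose smaller difference was 0.50, and just outside lay Mindy3, whose light and dark zone differences were -0.50 and 0.86. The count was 16 to 51 when 1 array was left out. It was 45 without DZ_high replicate 1, 36 without DZ_high replicate 2, 51 without DZ_high replicate 4, 41 without DZ_low replicate 3 and 33 without DZ_low replicate 4. It was 39 without LZ_high replicate 1 and 38 without LZ_high replicate 2.

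Cmah had the lowest unadjusted p of those named. It encodes the hydroxylase that makes N-glycolylneuraminic acid, a sialic acid that germinal centre B cells carry less of. Its values were 5.88, 6.05 and 5.93 in LZ_high and 6.42, 6.86, 7.78 and 7.24 in LZ_low. In DZ_high they were 6.28, 6.96, 7.79 and 7.54, and in DZ_low 6.85, 6.40, 6.81 and 6.03. The light zone groups did not overlap, the dark zone groups did, and in experiment A the dark zone difference was -0.56, against the sign of the other 3 pairs. Its contrast was -1.74 ± 0.42, from differences of -1.11 and 0.62. Without experiment D it was -1.39.

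The other named genes with lower light zone values included Btrc, a ubiquitin ligase subunit gene that marks inhibitors of NF-kappaB for decay (contrast -1.54 ± 0.49), and Mcoln2, an endolysosomal ion channel gene (-1.59 ± 0.60). Both were by far the largest in experiment C. Btrc had contrasts of -0.39, -0.64 and -4.12 in experiments A to C. Mcoln2 had 0.84, -0.96 and -4.29, so its sign in A was the other one. Naa20, an acetyltransferase subunit gene, had -1.35 ± 0.63 (-0.84 without LZ_low replicate 4), and Phc3, a Polycomb gene, -1.83 ± 1.49. In experiments A to C, Naa20 had 0.78, -0.44 and -3.08, and Phc3 had 0.19, 0.03 and -2.07. Phc3 lay at 4.63 in LZ_high of C and 4.50 in DZ_low of D, against 5.61 to 9.95 elsewhere, and its differences no longer had opposite signs without experiment D, where the contrast was -0.62. Ngp, a neutrophil granule gene, had a contrast of -1.89 ± 1.04, with values of 10.47 in LZ_low and 9.08 in DZ_low of experiment D, and 4.71 to 8.72 in the other arrays. Ngp is itself among the 19 neutrophil markers, so its values move with their mean level in part by definition. The part of those cells in its contrast was not tested. By experiment the contrast of Ngp was 0.35, -1.14 and -6.40 in A to C, so its sign in A was the other one, and it was -2.40 without experiment D. Its contrast was -1.67 without the LZ_low array of D and ranged from -2.45 to -1.27 with 1 array left out. Vopp1, Rnase12, Tmem68 and Fndc3a had contrasts of -1.54 ± 0.91, -1.17 ± 0.77, -1.12 ± 0.57 and -1.10 ± 0.49. In experiment A the contrast had the other sign for Rnase12, Tmem68 and Fndc3a, at 1.09, 0.30 and 0.24, and was -0.57 for Vopp1. In C it was -4.32, -3.63, -3.78 and -0.99 for Vopp1, Rnase12, Tmem68 and Fndc3a. Each of the 4 moved by over 1.5 times when arrays were left out. Without DZ_high replicate 3, Vopp1 was at -0.62 and Rnase12 at -0.35, and Rnase12 no longer had opposite signs. Without LZ_high replicate 4, Vopp1 was at -0.77, no longer with opposite signs, and Tmem68 at -0.70. Tmem68 was at -0.72 without LZ_low replicate 4, and Fndc3a at -0.61 without DZ_low replicate 3 or without experiment D.

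On the other side were 4 named genes with higher light zone values. Nop16, a nucleolar gene of ribosome assembly, had values of 9.62, 9.65 and 10.33 in LZ_high and 9.08, 8.60, 9.11 and 9.73 in LZ_low. In DZ_high they were 8.99, 9.16, 9.49 and 8.06, and in DZ_low 9.45, 8.81, 9.78 and 9.73. Both zones overlapped between affinities, and the contrast was 1.25 ± 0.45. It lay above 0 in experiments A, B and C, at 0.99, 0.69 and 1.51. Cd69, an activation marker gene whose product holds back S1PR1, had differences of 0.82 and -0.82 and a contrast of 1.64 ± 0.59, but -0.02 in experiment B. Polr3g, an RNA polymerase III subunit gene, had 1.67 ± 0.57, with 0.97, 0.52 and 4.33 in experiments A to C. Zranb1, a deubiquitinase gene, had 1.57 ± 0.65, or 1.04 without DZ_low replicate 4 and 0.83 with the mean of its 2 probe sets. Its dark zone pairs were -1.05, 0.01, -2.36 and 0.19 in A to D, so 2 of them lay above 0.

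A stricter view asked for opposite signs in all 3 light zone pairs and all 4 dark zone pairs. This held for 112 genes (0.562%), of which 63 were above 0 in every light zone pair and below 0 in every dark zone pair (0.316%) and 49 were the other way (0.246%). Genes with 1 sign in all 7 pairs numbered 347 (1.74%), 168 above and 179 below. Only 1 gene, 1110002L01Rik, was both among the 112 and among the 21 genes with large differences. With each array centred on its median the count was 171, of which 65 were among the 112, and with quantile normalization run again it was 188, of which 62 were. The share above 0 in the light zone was 56.2% of the 112 and 48.9% of the 188. The pairs that choose these genes also give their contrasts, so these values too are descriptions.

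Noct, which encodes nocturnin, a phosphatase of NADPH, had the most even pairs of those named. Its values were 6.60, 6.70 and 7.09 in LZ_high and 6.21, 6.31, 6.78 and 6.65 in LZ_low. In DZ_high they were 6.34, 6.35, 6.42 and 6.76, and in DZ_low 6.53, 6.55, 6.69 and 6.98. The affinity groups overlapped in each zone, while the pairs gave 0.39, 0.38 and 0.30 in the light zone and -0.18, -0.21, -0.27 and -0.22 in the dark zone. Its contrast was 0.61 ± 0.16. Naxd, a repair enzyme gene for damaged NADH, had 0.79 ± 0.22, Cdkal1, a tRNA-modifying enzyme gene, 0.72 ± 0.18, and Mrpl32, of the mitochondrial ribosome, 0.78 ± 0.22. Zfp930, a zinc finger gene, had 0.98 ± 0.28. The largest value, 1.62 ± 0.98 for Ly6a2, rested on the LZ_high array of experiment C, at 8.82 against 4.50 to 6.60 in the other arrays, and was 0.29 without it.

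With the signs reversed, Vamp3, which encodes a membrane fusion protein of recycling endosomes, had values of 9.02, 9.08, 8.93 and 8.79 in DZ_high and 8.91, 8.64, 8.39 and 7.76 in DZ_low. In the light zone they were 8.85, 8.67 and 8.41 against 8.93, 8.76, 8.91 and 8.36. The affinity groups overlapped in both zones, and the contrast was -0.76 ± 0.20. Ptpn22, a phosphatase gene that dampens antigen receptor signals, had -0.98 ± 0.35, with its highest value, 7.37, in the LZ_low array of experiment D, and -0.76 without that array. Ago1, of RNA silencing, had -0.89 ± 0.31, Plpp5, a lipid phosphatase gene, -0.69 ± 0.19, and Fut8, which fucosylates glycoproteins and is in the plasma cell list, -0.74 ± 0.35. Fut8 had light zone pairs of -0.03 and -0.01 in experiments A and B, so its sign there is slight, and its contrast was -0.40 without LZ_high replicate 4. The contrast of Cstad, -1.01 ± 0.55, rested on the LZ_low array of experiment C, at 7.24 against 4.69 to 5.63, and was -0.41 without it.

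**Figure D3:**
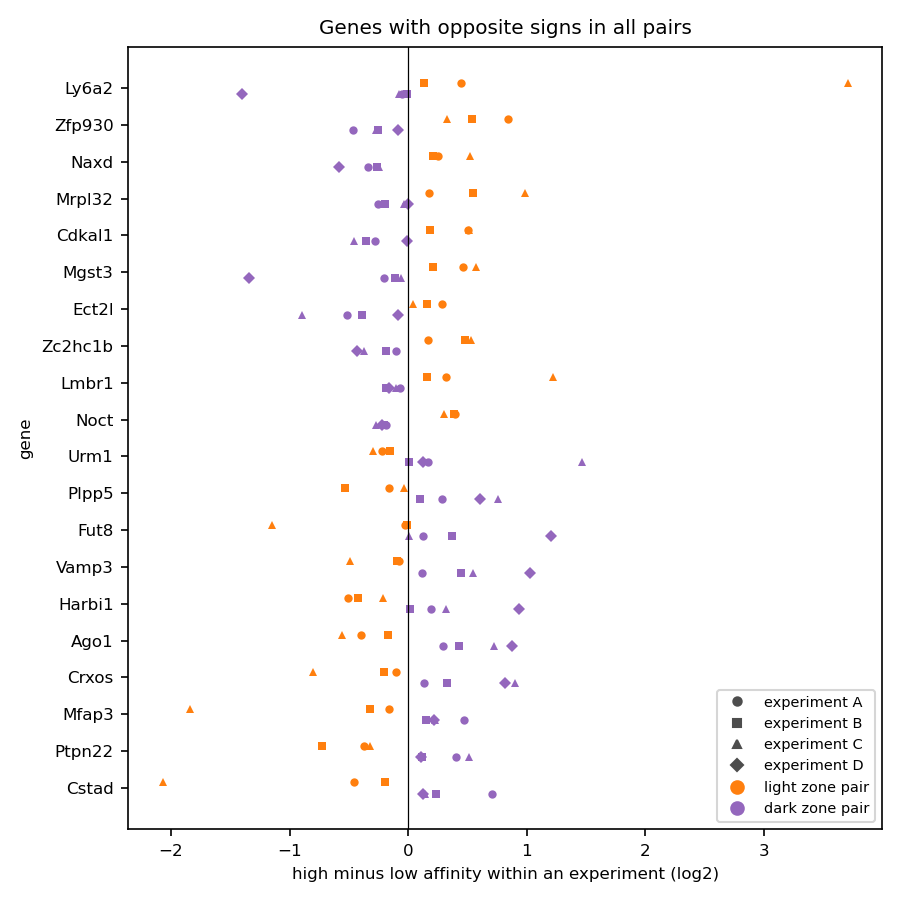
Each row is 1 of the 20 named genes with opposite signs in all 7 pairs, and each point is the high minus low affinity difference (log2) of 1 pair within an experiment, orange for the light zone, purple for the dark zone, with the shape giving the experiment. The choice of genes puts the colours on opposite sides of 0; Noct has narrow groups of points, while Ly6a2 and Cstad have 1 light zone point of experiment C far from the others.

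The lowest unadjusted p values were those of Il6st, Dph7, Ccr6, Cd93 and Cmah, of which Il6st, Dph7 and Cd93 were named after their values were seen. Il6st encodes gp130, the shared signalling subunit of receptors for interleukin-6 and its relatives. Its values were 6.38, 6.64, 6.37 and 6.48 in DZ_high and 5.80, 5.61, 5.13 and 5.97 in DZ_low. In the light zone they were 6.22, 6.06 and 5.44 in LZ_high and 6.10, 6.12, 6.08 and 6.67 in LZ_low. The dark zone groups did not overlap and the light zone groups did. Its contrast was -1.09 ± 0.23, with a dark zone difference of 0.84 ± 0.15 and a light zone difference of -0.25 ± 0.17, and it was -1.03 without the LZ_low array of experiment D, which held its highest value.

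Cd93 encodes a surface glycoprotein that long-lived plasma cells need. Its DZ_high values of 5.89, 6.48, 5.62 and 6.10 lay above the DZ_low values of 5.21, 5.54, 5.35 and 5.03. The LZ_high values of 4.54, 5.21 and 4.81 overlapped the LZ_low values of 4.69, 5.45, 4.67 and 5.21. Only the DZ_high group stood apart, and the contrast was -0.88 ± 0.22, or -0.71 without experiment D. Dph7, an enzyme gene of diphthamide synthesis on elongation factor 2, had a contrast of -0.69 ± 0.15, below 0 in experiments A, B and C at -0.64, -0.91 and -0.81. In limma these 5 genes too had an adjusted p of 1.

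**Figure D4:**
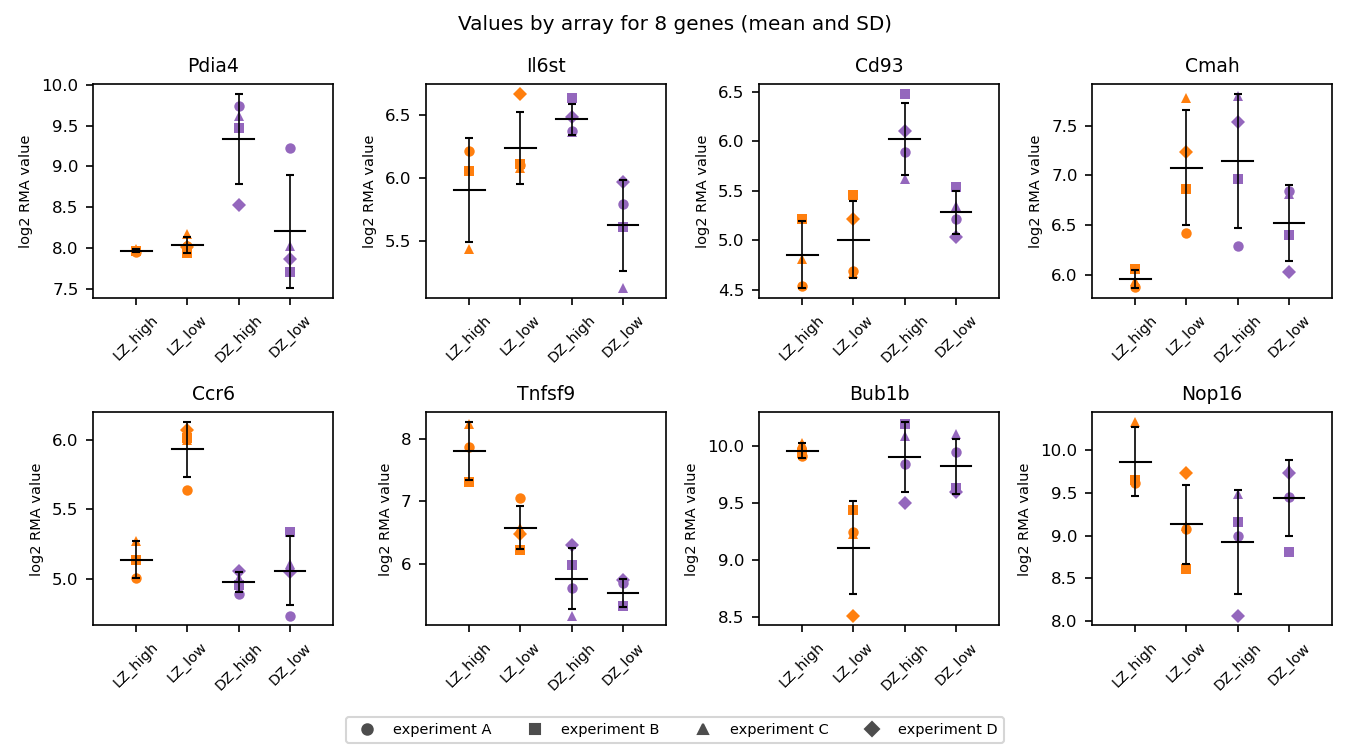
Points are log2 RMA values of single arrays for 8 genes in the 4 groups, with the shape giving the experiment, bars giving the mean and whiskers 1 SD. Pdia4, Il6st and Cd93 are high in DZ_high, with light zone groups that overlap, Ccr6 is high in LZ_low, Cmah is low in LZ_high, and Tnfsf9 and Bub1b differ between affinities in the light zone.

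Of the 35 measured genes of a set named for known roles in selection, 3 had opposite signs, Nr4a1, Pdia4 and S1pr1, against 44.3% of all genes. That share takes in dim genes, and none was taken over genes of a like level. An unadjusted p under 0.05, which 1.91% of all genes had, was found for 6 of the 35: Tnfsf9, Cd86, Bub1b, Pdia4, Ccr6 and S1pr1. The set was chosen with earlier results of these data known, so setting these shares side by side is no test of the set. Cd86 also set the zone gates. None passed after adjustment over all genes.

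Lists of other cells had contrasts below 0 as well. Neutrophil markers had a contrast median of -0.26 over 19 genes, with 16 below 0, and it was -0.02 without the LZ_low array of experiment D. T cell markers had -0.27 over 15 genes, and -0.10 without that array. NK cell markers had -0.25 over 14 genes, -0.15 without that array and -0.04 without LZ_high replicate 4. Myeloid markers had -0.17 over 21 genes, -0.07 without that array and -0.03 without DZ_high replicate 1. Without that array the median was -0.32 for plasma cell genes and -0.24 for memory genes. The DZ_low array of experiment D and the LZ_low array of C, which also had raised marker levels, remained in that fit. The part of other cells in these medians was not tested.

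Values less the mean of their experiment code were compared over all 15 arrays by Pearson correlation, among genes that could be named. The genes most like Ly6a2, the largest contrast above 0 among the 112, were H2bu1-ps (0.97), Crtc1 (0.95) and Tctn3 (0.94). Those most like Cstad, the largest below 0, were Plekhf1 (0.93), Tesk2 (0.92) and Trem1 (0.92). Ly6a2 and Cstad each have 1 array of experiment C that stands apart, and arrays share experiments, so these are descriptions.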

How the data were processed

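Amplified RNA of each sample was put on 1 whole-transcript array, per the labels' protocols. What the authors deposited is a table of RMA values on the log2 scale covering 28853 probe sets; RMA and build mm8 are named in the submitters' processing notes, and the software used is not given in the sources used here. That method shrinks differences between dim signals, and amplifying little RNA widens the spread. In the platform annotation 21789 probe sets had 1 gene, 1621 several and 5443 none. For 999 genes with several probe sets, the brightest on average stood for the gene, and no filter was applied to the 19938 genes.

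Limma 3.58.1 in R 4.3.3 (lmFit, eBayes) fitted 4 group means and the experiment code to all 15 arrays, leaving 8 residual degrees of freedom. Adjusted p-values follow Benjamini and Hochberg, over all genes of a contrast. Errors given with ± are standard errors of that fit. The 2 forms of code B, 1 on the dark zone arrays and 1 on the light zone arrays, were merged, and whether they are 1 experiment is not stated; each affinity pair lies within 1 zone. As a check of the codes, deviations from the group means were correlated between groups. The mean was 0.29 over 21 pairs of arrays sharing a code, 16 of them above 0.1. It was -0.08 over 63 pairs with unlike codes. Centring on group means ties these means, so the second tends to fall when the first rises. All codes were pooled, so the check cannot decide whether the 2 forms of code B are 1 experiment. No array repeated another (highest correlation 0.993).

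Named genes were the 10 largest contrasts per direction among genes with opposite signs in all 7 pairs, members of the lists that met the same condition, 36 genes chosen for known roles, 35 of them measured, and the genes with opposite signs and both differences at least 0.5. Predicted genes, small RNAs and antigen receptor segments were left out. The 5 genes with the lowest p, and list members given as examples other than those, were chosen after their values were seen. Members and lists were chosen with earlier results of these data known. Of 1009 list entries, 90 had no match and were not used here. Genes can be in several lists. Promoters came from a RefSeq table of GRCm38.p6, and matched by symbol. Alternatives changed the block, the arrays, the normalization, the filter, the choice of probe set, the variance model, the weights of arrays and the threshold. The steps were tested on simulated data. Figures were drawn with matplotlib 3.10.9.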

Additional observations from a re-analysis of the deposited data

Results flagged for a closer look

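In 12 of 219 groups of 4 arrays tested over the named genes, 1 array lay far from the other 3, by Dixon's criterion at a critical value of 0.829. Chance flags about 1 in 20 groups. Mcoln2 was at 7.68 in LZ_low of experiment C, against 6.10 to 6.35 in the other arrays of that group, and at 8.28 in DZ_high of C, against 6.76 to 6.82. S1pr1 was at 7.31 in LZ_low of C, against 5.88 to 6.12. Il6st was at 6.67 in LZ_low of D, against 6.08 to 6.12. In DZ_high of C, Icam1 was at 7.50, against 6.86 to 6.94, and Icosl at 7.49, against 7.23 to 7.26. In DZ_high of A, Ngp was at 5.38, against 7.57 to 7.73, and Tfrc at 8.20, against 8.43 to 8.46. Mgst3 was at 4.64 in DZ_high of D, against 5.40 to 5.44. In DZ_low of A, Batf was at 7.65, against 7.22 to 7.24, and Vopp1 at 6.90, against 7.38 to 7.46. Urm1 was at 5.63 in DZ_low of C, against 7.04 to 7.27.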

How the results depend on the processing

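The zone contrast called 0 genes in limma under each of 29 alternatives, with 145 to 875 genes at an unadjusted p under 0.05. The affinity difference called 2 genes in the light zone with array weights and 1 in the dark zone with quantile normalization run again, and 0 under the other alternatives; the cause was not tested. The block changed no call. With no replicate block, 17 genes had opposite signs and both differences at least 0.5, against 21 with the experiment code; there were 18 with the title number as the block and 22 with the code as written. That count was 45 without experiment D, 45 without its 2 low-affinity arrays, 11 with array weights, and 16 to 51 with 1 array left out. Of the 14 named genes of that kind, 5 still met both conditions with array weights. These weights ran from 0.20 for DZ_high of D to 2.40 for LZ_low of A. The 112 genes with opposite signs in all pairs became 325 without experiment D or its 2 low-affinity arrays, and 112 to 497 with 1 array left out, since fewer pairs must then fit. They became 171 with each array centred on its median, 188 with quantile normalization run again, and 26 among genes with a mean of at least 6. Of the 73 named genes, 56 kept the sign of their contrast under every alternative run for them, which were 27 for 58 genes and 26 for 15. So did 18 of 32 list medians, among them those of plasma cell, G2/M and memory genes. Dim genes limit what these arrays show: no detection calls were used, and a low value has no known floor.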
